A study of Mus musculus with 14 samples.

Results

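The genes of sterol synthesis and of its control by SREBP transcription factors were followed in mouse early erythroid progenitors treated with either of 2 compounds. The 28 genes were chosen by name as genes of the pathway, with earlier results of these data known. They are 28 of the 23597 symbols kept in the OB set and 28 of the 54540 kept in the PD set, and all 28 passed the filter on low values in both sets. By role they comprise 7 early mevalonate enzymes, 11 late sterol enzymes, 5 genes of SREBP control and 5 genes of supply, branching and sterol transport.

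The cells were BFU-E, burst-forming units of the erythroid lineage that stand early on the way to red blood cells, isolated from the fetal liver of C57BL/6 mice and cultured in StemSpan SFEM II medium. In the OB set, 3 libraries came from cells given compound OB at 100 µM and 3 from cells given the solvent DMSO. In the PD set, 3 libraries came from cells given compound PD at 3 nM and 3 from a separate DMSO control. The labels give both compounds by code only, state no duration of treatment, and do not say whether replicates came from separate cultures or animals. Every p-value therefore measures only the spread between these libraries, which may be technical.

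Cells make cholesterol from acetyl-CoA in a long chain of reactions. The early, mevalonate part builds the isoprenoid unit and joins it into farnesyl diphosphate, which also feeds other products such as ubiquinone and prenylated proteins. The late part commits farnesyl diphosphate to squalene, closes it into lanosterol and trims that to cholesterol. SREBP2 (gene Srebf2) and SREBP1 (gene Srebf1) are held in the endoplasmic reticulum by SCAP and the INSIG proteins when sterols are plentiful. When sterols run low, SCAP carries them to the Golgi, where they are cleaved and released to switch on the genes of the pathway. They act at promoters together with NF-Y, which binds the CCAAT box.

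Promoter sequences were searched for elements tied to this control. RefSeq windows (GRCm38.p6) reaching from 250 bases before to 50 bases after a start were at hand for 23 of the 28 members. Both strands were searched for a sterol element (TCACNCCAC), the NF-Y box (CCAAT) and the CREB element (TGACGTCA). The CCAAT box was present in 20 of the 23 members (87.0%), against 41.1% of 27025 genes with a window and 44.0% of the 7704 of them that were tested in the OB set. The 3 without it were Acat2, Scap and Lpin1. The Lpin1 window lies at a start inside the gene's outer bounds. The same holds for windows of some members counted with the box, among them Dhcr7 and Srebf1. The sterol element as spelled was found in 1 of 23, Hmgcs1, against 1.44% of all genes and 1.38% of the tested ones. The CREB element was found in 0 of 23, against 2.03% of all genes and 3.97% of the tested ones. A match of letters is a description and not evidence of binding, and a missing match says only that those letters are not in the window. The 250 bases before the start are printed for Hmgcs1, the one member with the sterol element, for Idi1, with CCAAT boxes alone, and for Acat2, with neither. Capitals mark the matches, with the CCAAT box read from the other strand as ATTGG, and the motifs do not overlap.
Hmgcs1, chr13:119690101-119690350, plus strand: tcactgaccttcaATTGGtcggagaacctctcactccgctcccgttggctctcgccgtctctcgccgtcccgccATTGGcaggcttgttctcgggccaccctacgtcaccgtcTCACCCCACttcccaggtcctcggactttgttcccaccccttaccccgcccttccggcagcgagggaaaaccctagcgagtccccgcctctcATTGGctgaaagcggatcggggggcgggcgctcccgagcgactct
Idi1, chr13:8885356-8885605, plus strand: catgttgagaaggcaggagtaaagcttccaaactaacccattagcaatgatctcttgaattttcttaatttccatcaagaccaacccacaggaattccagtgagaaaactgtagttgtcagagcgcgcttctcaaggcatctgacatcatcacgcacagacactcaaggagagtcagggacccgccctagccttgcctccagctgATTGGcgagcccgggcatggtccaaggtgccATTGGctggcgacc
Acat2, chr17:12960726-12960975, minus strand: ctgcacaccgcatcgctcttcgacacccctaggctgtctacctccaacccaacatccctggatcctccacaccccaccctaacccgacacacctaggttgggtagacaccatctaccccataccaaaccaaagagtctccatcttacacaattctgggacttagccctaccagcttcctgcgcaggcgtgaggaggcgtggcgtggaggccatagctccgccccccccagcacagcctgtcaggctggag

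In Hmgcs1 the sterol element began at position -137 from the start, between CCAAT boxes at -176 and -45. Further boxes lay at -237 and, after the start and so not in the printed bases, at 11. Idi1 carried CCAAT boxes at -45 and -14. In the same build Hmgcs1 spans chromosome 13, 119690351 to 119708260, Idi1 spans chromosome 13, 8885606 to 8892396, and Acat2 spans chromosome 17, 12943042 to 12960725.

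Some libraries stood apart. OB DMSO replicate 2 listed the ribosomal RNA precursor Rn45s at 12380 FPKM against 175 to 955 in the other 5 libraries of its set. In the OB set the libraries numbered 1 held the cell cycle inhibitor Cdkn1a at 321 (DMSO) and 227 (compound), against 67.5 to 81.9 in the other 4. In PD DMSO replicate 1 the median gene lay at log2 -0.19 from its DMSO mean, against 0.09 in both other DMSO libraries. The erythroid markers fixed for these cells (Kit, Gata1, Gata2, Klf1, Tfrc, Epor, Tal1 and Myb) were all expressed, with summed levels of 1188 to 1390 FPKM in OB DMSO, 1201 to 1296 with compound OB, 1080 to 1288 in PD DMSO and 943 to 1063 with compound PD. Hepatocyte markers summed to at most 2.7 FPKM in any library and lymphoid markers to at most 0.94. Other blood lineages were represented, unequally between the sets. In OB DMSO neutrophil and precursor markers summed to 95.1 to 397 FPKM, megakaryocyte markers to 471 to 1329 and mast cell markers to 3.76 to 15.2. In PD DMSO the same sums were 4994 to 7082, 2257 to 4462 and 369 to 596. In bulk RNA, fewer cells of a type and less RNA per cell cannot be told apart.

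In the DMSO controls every member was expressed. Levels are FPKM, in which fragment numbers are divided by the length of the gene and by the size of the library, so that genes can be compared. Mean levels ran from 6.77 (Npc1) to 718 (Fdps) in the OB set and from 8.02 (Npc1) to 475 (Fdps) in the PD set. Fdps, which makes farnesyl diphosphate, measured 630, 732 and 792 in the OB DMSO libraries and 526, 465 and 433 in the PD DMSO libraries. It ranked first in both sets, and its lowest DMSO library lay above the highest of every other member in its set. Idi1, the isomerase of the isoprenoid unit, ranked second in both, with 259, 266 and 271 in OB DMSO and 217, 221 and 188 in PD DMSO. Msmo1, a methyl sterol oxidase, came next in both, with a mean of 179.8 ± 31.9 in OB DMSO and 126.9 ± 14.0 in PD DMSO (SD, n = 3).

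The early enzymes had a median of mean levels of 120.0 FPKM in OB DMSO and 76.7 in PD DMSO, and the late enzymes 72.8 and 52.7. The 5 control genes had medians of 33.6 and 41.6. The lowest of the enzymes was Hsd17b7, a sterol 3-ketoreductase, with a mean of 14.2 ± 1.81 in OB DMSO and 14.9 ± 2.63 in PD DMSO (SD, n = 3). Insig2 was the lowest of the control genes at 7.41 ± 1.01 and 13.4 ± 2.67 (SD, n = 3). Across the 28 genes the DMSO means of the sets had a Spearman rho of 0.934, a description across genes, which are not independent replicates. The sets list different numbers of genes and were made as separate tables, so their levels are set side by side and not tested. Their controls also differed in markers of other blood lineages, as given above.

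**Figure D1:**
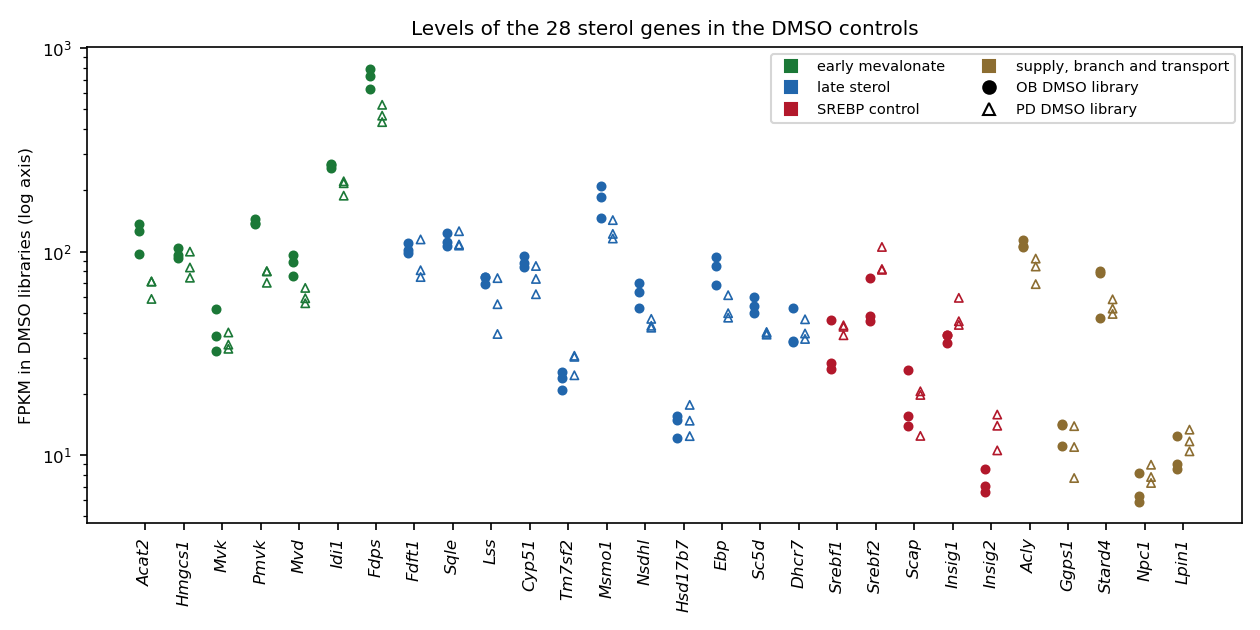
FPKM on a log axis (vertical) of each of the 28 genes (horizontal, coloured by role) in the 3 OB DMSO libraries (filled circles) and the 3 PD DMSO libraries (open triangles). Fdps lies highest in both sets, with means of 718 and 475, and Npc1 lowest, with 6.77 and 8.02.

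After compound OB most enzymes of the pathway were slightly lower and none passed the test. All 7 early enzymes and 9 of 11 late enzymes had a lower fitted level, with medians of log2 -0.19 in both roles, while the median over all 10073 genes tested was 0.03 (4157 lower, 5916 higher). Over all 28 members the median was -0.11 with 20 lower, and leaving out control library 1 or 3 gave -0.17 or -0.07. Differences are on the log2(FPKM + 1) scale, compound minus DMSO, and were tested with limma across all genes with Benjamini-Hochberg adjustment at a threshold of 0.05. No member was called (0 of 28, against a background of 0% of genes), each adjusted p being 0.9998, and 4 of 28 members had an unadjusted p under 0.05, against 3.69% of all genes.

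In the OB set libraries with the same replicate number deviated together from their group means (correlations across genes 0.83, 0.43 and 0.65). The second of these stood little above DMSO 2 with compound 3 (0.41), so that pair is weakly grounded. The comparison was also made with the number as a block. That fit called 0.0695% of all genes and again 0 of 28 members, with adjusted p from 0.146 (Fdps) to 0.879 (Dhcr7). At an unadjusted p under 0.05 it held 13 of 28 members, against 14.9% of all genes. Of these 13, 12 were enzymes with a lower level and 1 was Lpin1, with a higher level. The count is a description across genes, which are not independent replicates. Without replicate 1 the blocked fit, left with 2 pairs and few residual degrees of freedom, called 8 members. Lower were 6, Idi1, Msmo1, Fdps, Fdft1, Acat2 and Ebp (adjusted p from 0.00967 to 0.0444), where 1.65% of all genes were called lower. Higher were 2, Lpin1 (adjusted p = 0.0122) and Srebf2 (adjusted p = 0.0361), where 9.72% of all genes were called higher. Without replicate 2 it called Fdps alone, lower (adjusted p = 0.0441; 0.743% of all genes), and without replicate 3 it called none.

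Among the early enzymes, Idi1 measured 241, 208 and 222 with compound OB against the 259, 266 and 271 in DMSO. Every treated library lay below every control (log2 -0.25, SE 0.06 with the block, adjusted p = 0.238). Fdps measured 547, 636 and 663 with compound OB against 630, 732 and 792 (log2 -0.22, SE 0.04 with the block, adjusted p = 0.146). Its groups overlapped, but each treated library was below the control of its own number, by log2 0.20 to 0.26 in size.

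Pmvk, the kinase that makes mevalonate diphosphate, measured 136, 138 and 144 in DMSO and 120.35, 118 and 127 with compound OB (log2 -0.19, SE 0.05 with the block, adjusted p = 0.237). Its groups did not overlap. Mvd, which decarboxylates mevalonate diphosphate, measured 96.2, 75.6 and 88.9 in DMSO and 78.7, 74.4 and 72.5 with compound OB (log2 -0.20, SE 0.07 with the block, adjusted p = 0.308). Its DMSO replicate 2 lay within the treated range. Hmgcs1, which makes HMG-CoA, measured 95.7, 93.4 and 104 in DMSO and 87.9, 91.4 and 96.2 with compound OB (log2 -0.09). The groups overlapped, and the pairs differed by -0.12, -0.03 and -0.11. Acat2, the thiolase of the first step, had a log2 of -0.19 and was lower in all 3 pairs. Mvk, mevalonate kinase, had -0.04, with 1 pair higher and 2 lower.

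Among the late enzymes, Fdft1, squalene synthase, measured 102, 98.6 and 110.1 in DMSO and 86.5, 83.7 and 85.8 with compound OB. The groups did not overlap, and this was the largest difference of any enzyme (log2 -0.28, SE 0.05 with the block, adjusted p = 0.178). Ebp, the sterol isomerase, measured 68.3, 85.1 and 93.6 in DMSO and 57.6, 71.9 and 78.8 with compound OB (log2 -0.24, SE 0.05 with the block, adjusted p = 0.201). Its groups overlapped because the level differed between replicate numbers alike in both groups, while the 3 pairs gave nearly one value, -0.24, -0.24 and -0.25. Hsd17b7 measured 12.1, 14.9 and 15.5 in DMSO and 10.3, 12.6 and 13.0 with compound OB, with pairs of -0.22, -0.23 and -0.24 (log2 -0.23, SE 0.07 with the block, adjusted p = 0.291).

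Cyp51, the lanosterol demethylase, measured 83.8, 88.2 and 94.6 in DMSO and 77.1, 75.9 and 80.01 with compound OB, without overlap (log2 -0.19, SE 0.05 with the block, adjusted p = 0.276). Msmo1 had a log2 of -0.22, Sc5d, a sterol desaturase, -0.19 and Nsdhl, a decarboxylating sterol dehydrogenase, -0.17, each lower in all 3 pairs. The remaining 4 late enzymes lay near 0. Lss, lanosterol synthase, measured 74.7, 69.0 and 74.7 in DMSO and 69.8, 73.3 and 71.5 with compound OB (log2 -0.02). Tm7sf2, a sterol reductase, measured 23.9, 20.9 and 25.5 in DMSO and 22.1, 21.2 and 24.05 with compound OB (log2 -0.06). In both the groups overlapped. Sqle, squalene epoxidase, had 0.06. Dhcr7, the reductase of a last step, had 0.03, which became -0.01 under median-ratio scaling and quantile normalization.

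Counted over all members, 4 of 28 lay wholly below their DMSO libraries with compound OB (Pmvk, Idi1, Fdft1 and Cyp51), against 3.42% of all genes. Wholly above lay 1, Lpin1, against 5.31%. Within the replicate numbers, 15 of 28 members were lower in all 3 pairs, against 16.7% of all genes, and 13 of these were among the 18 enzymes. Higher in all 3 pairs were 3 of 28, Srebf2, Npc1 and Lpin1, against 23.1%. The enzyme count was 15 of 18 under median-ratio scaling and under quantile normalization, against 20.5% and 20.1% of all genes. Over the 2 pairs that remained it was 13 of 18 without replicate 1, 17 without replicate 2 and 13 without replicate 3, against 24.9%, 29.6% and 21.1% of all genes. These counts are descriptions across genes, which are not independent replicates.

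**Figure D2:**
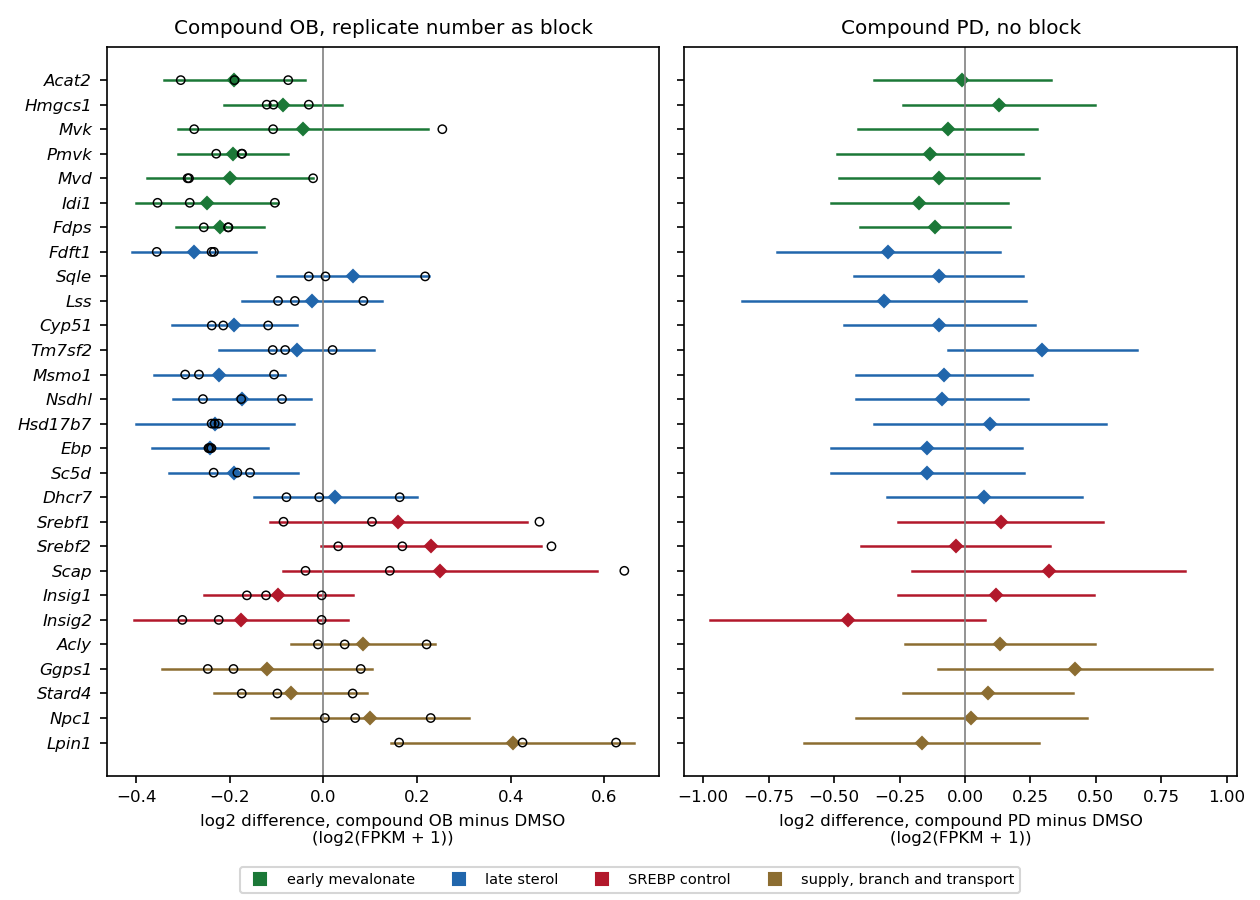
Log2 difference (horizontal, log2(FPKM + 1), compound minus DMSO) of each gene (vertical, coloured by role), as a diamond with its 95% interval from limma. Left, compound OB with the replicate number as a block, with open circles for the 3 pairs. Right, compound PD without a block. On the left 16 of 18 enzymes lie below 0, and on the right 14 of 18 do so with wider intervals.

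The control genes had mixed signs after compound OB, 3 higher and 2 lower, and none was called. Srebf2, the SREBP that mainly serves sterol genes, measured 74.3, 45.8 and 48.4 in DMSO and 76.0, 64.6 and 54.5 with compound OB (log2 0.23, SE 0.10 with the block, adjusted p = 0.340). The libraries numbered 1 were the highest of both groups, and all 3 pairs were higher, by 0.03, 0.49 and 0.17. Srebf1, whose SREBP1 product mainly serves fatty acid genes, measured 46.1, 26.6 and 28.2 in DMSO and 43.4, 37.0 and 30.4 with compound OB (log2 0.16). Scap, the escort protein, measured 26.2, 13.8 and 15.6 in DMSO and 25.5, 22.1 and 17.4 with compound OB (log2 0.25).

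For these 3 genes DMSO replicate 2, the library with the high Rn45s, was the lowest of the 6, and its pair gave the largest difference. Without that library alone the log2 values were 0.10 for Srebf2, 0.02 for Srebf1 and 0.08 for Scap. Without DMSO replicate 1, the highest of its group, they were 0.45, 0.40 and 0.51, and none was called in either case. Leaving out 1 of the 6 libraries moved the value of 22 of the 28 members by over 1.5 times in at least one case. Insig1, a sterol-sensing retention protein that SREBP itself induces, measured 38.9, 35.5 and 39.0 in DMSO and 35.6, 35.5 and 34.8 with compound OB (log2 -0.10). Insig2, its relative, measured 6.61, 7.08 and 8.55 in DMSO and 6.59, 5.92 and 6.75 with compound OB (log2 -0.18). Both were lower in all 3 pairs with overlapping groups, and their adjusted p with the block were 0.494 and 0.407.

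Among the genes of supply, branching and transport, Lpin1 had the largest difference of all 28 members. It encodes lipin-1, a phosphatidate phosphatase of glycerolipid synthesis, and measured 12.4, 8.55 and 9.06 in DMSO and 14.0, 13.7 and 12.5 with compound OB. Every treated library lay above every control, though replicate 3 exceeded DMSO replicate 1 by only a small margin (log2 0.40, SE 0.11 with the block, adjusted p = 0.257). Ggps1, which diverts farnesyl diphosphate to geranylgeranyl diphosphate, measured 11.1, 14.0 and 14.2 in DMSO and 11.8, 12.1 and 11.8 with compound OB (log2 -0.12). Acly, which supplies acetyl-CoA in the cytosol, measured 106, 105 and 114 in DMSO and 109, 123 and 113 with compound OB (log2 0.08). Npc1, which exports cholesterol from lysosomes, measured 8.15, 5.91 and 6.26 in DMSO and 8.17, 7.10 and 6.61 with compound OB (log2 0.10). The groups of the last 3 genes overlapped. Stard4, a sterol carrier, had a log2 of -0.07 and turned positive when DMSO replicate 2, DMSO replicate 3 or compound OB replicate 1 was left out.

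The libraries numbered 1 differed from the others in many genes, and in members no more often than in all genes. They were the lowest of both groups for 8 members (28.6%; Acat2, Fdps, Msmo1, Nsdhl, Hsd17b7, Ebp, Sc5d and Stard4), against 33.7% of all genes. They were the highest of both for another 8 (28.6%; Mvk, Mvd, Dhcr7, Srebf1, Srebf2, Scap, Npc1 and Lpin1), against 35.1%. What sets these libraries apart was not tested. Of the erythroid markers, 7 of 8 were higher with compound OB and 0 were called, where 5916 of all 10073 genes were higher and 0% were called. Kit, the receptor for stem cell factor, ranged from 23.1 to 25.9 in DMSO and from 36.0 to 41.7 with compound OB. The 1 lower marker was Tfrc, with means of 600 and 498 FPKM (log2 -0.24) and overlapping groups. The part of these markers in the sterol values was not tested.

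**Figure D3:**
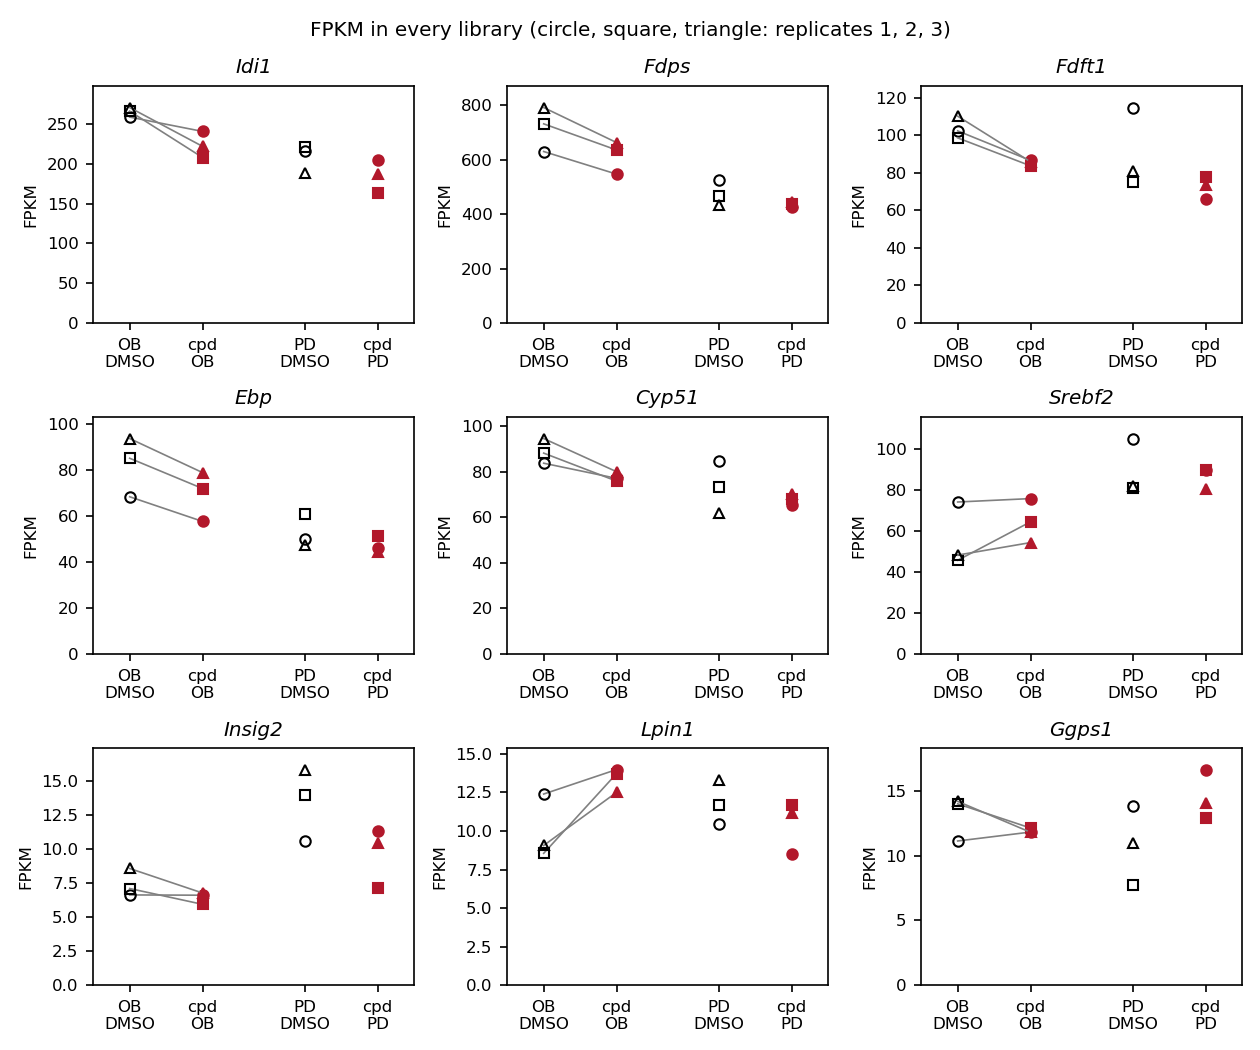
FPKM (vertical, from 0) of 9 genes in each of the 12 libraries, with open black symbols for DMSO, filled red symbols for compound, and symbol shape for the replicate number. Grey lines join libraries of one number in the OB set, where all 3 lines fall for Idi1, Fdps, Fdft1, Ebp and Cyp51 and climb for Srebf2 and Lpin1.

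After compound PD no member was called (0 of 28, against 0.0252% of all genes), with adjusted p from 0.564 (Insig2) to 0.993 (Acat2), and 0 of 28 had an unadjusted p under 0.05, against 10.7% of all genes. The early enzymes had a median of log2 -0.10 with 6 of 7 lower and the late enzymes -0.10 with 8 of 11 lower, while all 11887 genes tested had a median of 0.06 (4862 lower, 7025 higher). Over the 28 members the median was -0.07 with 17 lower. Without PD DMSO replicate 1, the library whose median gene lay lowest, the median over members was 0.01 and 11 of 18 enzymes were lower. Under median-ratio scaling the median was -0.17.

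No member lay wholly below its DMSO libraries with compound PD (3.72% of all genes did), and 1 of 28 lay wholly above (13.1% did). This was Tm7sf2, with 30.4, 24.7 and 30.8 in DMSO and 36.9, 33.8 and 34.8 with compound PD (log2 0.30, SE 0.16, adjusted p = 0.588). Lss measured 39.3, 55.1 and 74.0 in DMSO and 52.4, 42.5 and 37.4 with compound PD (log2 -0.31, SE 0.24, adjusted p = 0.770). Its spread in DMSO covered all 3 treated libraries but the lowest. Fdft1 measured 115, 74.9 and 80.9 in DMSO and 65.8, 77.7 and 73.6 with compound PD (log2 -0.29, SE 0.19, adjusted p = 0.690). DMSO replicate 1 alone was high, and the other libraries lay close together.

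Of the early enzymes, Idi1 measured 205, 164 and 187 with compound PD against 217, 221 and 188 in DMSO (log2 -0.17, SE 0.15, adjusted p = 0.807). Pmvk measured 70.2, 79.9 and 80.1 in DMSO and 60.5, 76.9 and 72.9 with compound PD (log2 -0.13). Hmgcs1 was the one early enzyme with a higher level, at 99.9, 83.5 and 74.4 in DMSO and 102, 88.0 and 90.8 with compound PD (log2 0.13, adjusted p = 0.901). All 3 overlapped between groups. Fdps measured 426, 438 and 445 with compound PD (log2 -0.12), within the range of its DMSO libraries but for the lowest.

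The other late enzymes showed small differences on the log2 scale with compound PD, from -0.15 (Ebp) to 0.09 (Hsd17b7). Hsd17b7 measured 17.6, 14.8 and 12.4 in DMSO and 18.6, 15.2 and 14.2 with compound PD, and its sign turned under quantile normalization (-0.01). Ebp measured 49.8, 61.0 and 47.3 in DMSO and 46.2, 51.4 and 44.4 with compound PD. Both overlapped. Mvd, of the early enzymes, measured 59.0, 55.7 and 66.3 in DMSO and 67.3, 52.2 and 50.2 with compound PD (log2 -0.10), also with overlap.

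Insig2 gave the largest difference of the 28 with compound PD. It measured 10.5, 13.9 and 15.8 in DMSO and 11.3, 7.12 and 10.4 with compound PD (log2 -0.45, SE 0.23, adjusted p = 0.564), and the groups overlapped. Insig1 measured 59.2, 43.6 and 45.5 in DMSO and 51.8, 53.6 and 54.5 with compound PD (log2 0.12). Srebf2 measured 105, 81.3 and 82.0 in DMSO and 89.8, 90.05 and 80.7 with compound PD (log2 -0.04). Both had treated libraries inside the DMSO range. Srebf1 measured 38.8, 43.4 and 42.7 in DMSO and 56.2, 41.9 and 40.8 with compound PD (log2 0.14), a difference carried by replicate 1. Scap measured 12.4, 20.6 and 19.7 in DMSO and 25.7, 21.8 and 18.1 with compound PD (log2 0.32, SE 0.23, adjusted p = 0.748), with the low value in DMSO replicate 1.

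Ggps1 measured 13.9, 7.71 and 10.95 in DMSO and 16.7, 12.9 and 14.1 with compound PD (log2 0.42, SE 0.23, adjusted p = 0.604). Its lowest treated library lay below its highest control. Lpin1 measured 10.4, 11.7 and 13.3 in DMSO and 8.50, 11.7 and 11.2 with compound PD (log2 -0.17, adjusted p = 0.895). Acly measured 69.2, 84.4 and 92.3 in DMSO and 95.9, 89.2 and 83.8 with compound PD (log2 0.13). All 3 groups of values overlapped with their controls. Npc1 measured 7.80, 8.96 and 7.29 in DMSO and 8.37, 9.07 and 7.11 with compound PD (log2 0.02), which turned to -0.06 under median-ratio scaling and -0.11 under quantile normalization.

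Most tested markers of other blood lineages had a higher level with compound PD, where 7025 of all 11887 genes tested were higher. Neutrophil and precursor markers summed to 4994 to 7082 FPKM in DMSO and 11815 to 14254 with compound PD, with 6 of 6 higher. Within these sums S100a8 alone averaged 4650 FPKM in DMSO and 10414 with compound PD, while Mpo (log2 0.15) and Ctsg (log2 0.03) differed little. Megakaryocyte markers summed to 2257 to 4462 and 4118 to 7339, with 5 of 5 higher. Mast cell markers summed to 369 to 596 and 562 to 1054, with 2 of 3 tested higher and Mcpt8 lower (means of 20.5 and 12.7 FPKM). Macrophage markers summed to 7.3 to 14.9 and 15.4 to 20.3, with 2 of 2 tested higher. Among those below the filter, Fcer1a, C1qa, C1qb and Vcam1 had lower means and Cd5l a higher one. Without a block none of these markers was called (limma adjusted p = 0.351 for Pf4 and 0.0813 for S100a8). With the replicate number as a block Pf4 (log2 0.87, adjusted p = 0.0170) and S100a8 (log2 1.17, adjusted p = 0.00427) were called higher. That fit called 36 of 11887 genes higher and 5 lower. Same-numbered PD libraries did not deviate together, so the data give no ground for this block. The sums did not overlap between PD groups for the neutrophil and macrophage lists and overlapped for the megakaryocyte and mast cell lists. In the OB set they overlapped for all 4. The erythroid markers summed to 1080 to 1288 FPKM in PD DMSO and to 943 to 1063 with compound PD, lower and without overlap. Of these 8 markers, 4 were higher and 4 lower with compound PD, and 0 were called, against 0.0252% of all genes. Tfrc (log2 -0.41) and Klf1 (log2 -0.29) were among the lower ones. Kit (log2 0.54) and Gata2 (log2 0.40) were among the higher ones. The part of these markers in the sterol values was not tested.

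The effects of the compounds, each against its own DMSO, were compared in one fit of the 12 libraries over the 10311 genes tested. The doses differ, and compound, dose and set go together, so effects of the compound and of the set cannot be told apart. Over the 28 pairs of effects, no member was called (0 of 28, against 0% of all genes; adjusted p from 0.622 to 1.00), and 1 had an unadjusted p under 0.05, against 7.38% of all genes. That was Lpin1, with 0.40 after compound OB and -0.17 after compound PD (PD effect minus OB effect -0.57, SE 0.25, 95% interval -1.10 to -0.04, adjusted p = 0.622). Ggps1 had the next largest difference, from -0.12 to 0.42 (0.54, SE 0.27, 95% interval -0.04 to 1.12, adjusted p = 0.717), and Tm7sf2 followed, from -0.06 to 0.30 (0.35, 95% interval -0.06 to 0.77, adjusted p = 0.768).

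The intervals of the other 25 members spanned 0. For Fdft1, with -0.28 and -0.29, the interval of the difference was -0.48 to 0.45, and for Idi1, with -0.25 and -0.17, it was -0.29 to 0.44. Differences of those sizes in either direction remain within the error. Side by side, 13 of 18 enzymes had a lower level in both sets, and over all members 14 were lower in both and 5 higher in both. The share of all genes lower or higher in both sets was not computed, so these counts have no background. Without PD DMSO replicate 1, 11 of 18 enzymes were lower after compound PD.

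Early and late steps were set against each other by library, as mean log2 deviations from the DMSO mean of the set. With compound OB the early enzymes lay at -0.18, -0.17 and -0.15 and the late enzymes at -0.21, -0.13 and -0.08. In OB DMSO the early enzymes ranged from -0.06 to 0.07 and the late enzymes from -0.07 to 0.10. The early enzymes of all 3 treated libraries thus lay below the DMSO range, and the late enzymes of replicate 3 lay only 0.01 below it. The median of early minus the median of late was 0.00 in both comparisons. It ranged from -0.04 to 0.04 when one OB library was left out and from -0.08 to 0.06 when one PD library was left out.

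With compound PD the early enzymes lay at -0.02, -0.10 and -0.08 and the late enzymes at -0.04, -0.05 and -0.13, against -0.03 to 0.04 and -0.04 to 0.07 in PD DMSO. Replicate 1 lay inside the DMSO range for both. The control genes spread most among the OB libraries, from -0.20 (DMSO replicate 2) to 0.27 (DMSO replicate 1) in DMSO alone, which covered all 3 treated values of -0.07, 0.07 and 0.23.

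**Figure D4:**
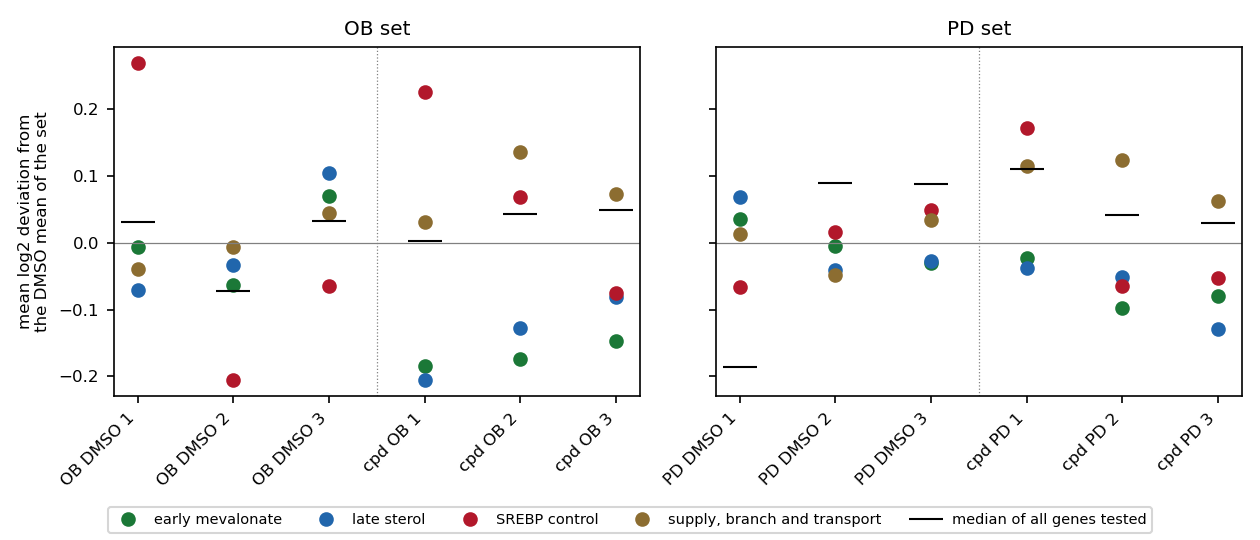
Mean log2 deviation (vertical) of each role from the DMSO mean of its set in each library (horizontal), with a black dash for the median of all genes tested. In the OB set the early enzymes lie at -0.15 to -0.18 in the treated libraries, below their DMSO range of -0.06 to 0.07, and the control genes range from -0.20 to 0.27 within DMSO.

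Neighbouring pathways held no called gene in either set, where 0% (OB) and 0.0252% (PD) of all genes were called. Of all genes tested, 5916 of 10073 were higher after compound OB and 7025 of 11887 after compound PD. Of 12 fatty acid synthesis genes, which SREBP1 serves, 11 were tested, and 6 were higher and 5 lower after each compound, with medians of log2 0.03 (OB) and 0.01 (PD). Fasn, fatty acid synthase, had 37.1 ± 4.45 FPKM in the controls and 48.4 ± 8.58 after compound OB (SD, n = 3; log2 0.37), and Gpam, a glycerol-phosphate acyltransferase, had 0.26. After compound PD, Scd1, a fatty acid desaturase, had 20.0 ± 1.13 and 15.0 ± 3.65 FPKM (SD, n = 3; log2 -0.41), and Acss2, which makes acetyl-CoA from acetate, had -0.31.

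Of 12 genes of sterol export, storage and SREBP cleavage, 8 were tested after compound OB (6 higher) and 10 after compound PD (6 higher). Soat2, which esterifies cholesterol, had 21.2 ± 3.87 FPKM in the controls and 28.7 ± 4.52 after compound OB (SD, n = 3; log2 0.42), and Mbtps1, the site-1 protease that cleaves SREBP, had 0.27. After compound PD, Nr1h3, the sterol-sensing receptor LXR alpha, had 2.67 ± 0.990 and 1.13 ± 0.919 FPKM (SD, n = 3; log2 -0.84), and Soat1, the other esterifying enzyme, had 0.41. Of 10 genes of isoprenoid use, 7 had a higher level with compound OB (3 a lower one) and 3 with compound PD (7 a lower one). The largest differences in size were those of Rabggta (0.14) and Coq2 (0.13) after compound OB, and of Pdss1 (-0.38) and Dhdds (0.32) after compound PD.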

How the data were processed

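RNA was measured in 12 libraries of cultured BFU-E, in 2 sets of 3 DMSO and 3 compound libraries, and 2 chromatin samples are not analysed here. The authors deposited FPKM values with 2 decimals for each gene and library. The submitters' processing notes name STAR and the build mm10. The version of STAR, the annotation, the use of strand and the program behind the FPKM values were not given in the sources used here. Values of overlapping or near-identical genes are therefore uncertain. Of 24054 genes listed in the OB set, 27 names turned into dates and 430 with repeated or damaged names or text in place of a value were left out, and of 54752 in the PD set, 27 and 185. No member was among them. Depth is unknown, and a search for steps of whole reads found 5.74% (OB) and 7.87% (PD) of ratios whole within 0.05, against 10% by chance, so no counting error is given and precision is the spread over 3 libraries.

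The 3 compound and 3 DMSO libraries of a set were fitted with limma 3.58.1 (statmod 1.5.0, R 4.3.3), robust and with a trend of variance on level, on log2(FPKM + 1), a scale that understates changes of low genes. Genes averaging 1 FPKM or more entered, and two-sided p-values were adjusted by Benjamini-Hochberg over all of them (threshold 0.05). The fitting script was tested on simulated data. Same-numbered OB libraries deviated together from their group means (correlations across 10073 genes 0.83, 0.43 and 0.65). Differently numbered OB libraries gave -0.71 to 0.41, the highest for DMSO 2 with compound 3, so the second pair stands little above an unmatched one. The pairing comes from the data and not from the labels. Same-numbered PD libraries did not deviate together (-0.01, -0.03 and -0.02). The block is therefore given for the OB set. Alternatives were other pseudocounts, filters, scalings, limma settings, the block and leaving out each library. The members and gene lists were chosen with earlier results of these data known. All 28 members are named by role, with values per library for Srebf1, Srebf2, Insig1, Insig2 and the 3 with the largest difference of each role in either set. Of the other lists the 2 genes with the largest difference are named. Promoter sequences and gene positions are from RefSeq tables of GRCm38.p6. Other steps used Python 3.11.15 with numpy 2.4.6, pandas 2.3.3 and, for figures, matplotlib 3.10.9.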

Additional observations from a re-analysis of the deposited data

How the results depend on the processing

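No member was called in any comparison under another pseudocount, filter, scaling or limma setting, with the replicate block, or without any one library in the fit without a block. With the replicate block the smallest adjusted p of a member was 0.146 (OB), 0.665 (PD) and 0.331 (difference). With the replicate block and median-ratio scaling, chosen after seeing the data, it was 0.058 (OB), 0.400 (PD) and 0.239 (difference). Leaving out a replicate number from the blocked OB fit gave 0 to 8 members. Over all genes of the PD set the replicate block gave 36 higher and 5 lower calls, against 1 and 2 without it, it changed no member's call, and same-numbered PD libraries did not correlate. The median of the OB members ran from -0.17 to -0.074 without one library. The median of the PD members was -0.17 with median-ratio scaling, with or without the replicate block, and ran from -0.095 to 0.0077 without one library. The PD early minus late median ran from -0.078 to 0.056 without one library. The causes were not tested.

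Some members that were called nowhere changed sign. With median-ratio scaling (with or without the block) Dhcr7 was -0.0091 (OB) and -0.019 (PD), Stard4 -0.0053 (PD) and Npc1 -0.060 (PD). With quantile normalization Dhcr7 was -0.0091 (OB), Hsd17b7 -0.013 (PD), Npc1 -0.11 (PD) and the Fdft1 difference 0.0018. Without one library, the OB values ran from -0.19 to 0.14 (Mvk), -0.13 to 0.0039 (Tm7sf2), -0.10 to 0.20 (Dhcr7) and -0.32 to 0.11 (Stard4). The PD values ran from -0.10 to 0.037 (Acat2), -0.12 to 0.0099 (Mvk), -0.21 to 0.013 (Cyp51), -0.14 to 0.0058 (Msmo1), -0.024 to 0.21 (Hsd17b7), -0.0085 to 0.22 (Srebf1), -0.099 to 0.086 (Srebf2) and -0.044 to 0.11 (Npc1). The differences between compounds ran from -0.20 to 0.13 (Mvk), -0.011 to 0.16 (Pmvk), -0.029 to 0.20 (Mvd), -0.0011 to 0.16 (Idi1), -0.14 to 0.17 (Fdft1), -0.024 to 0.20 (Cyp51), -0.0080 to 0.20 (Nsdhl), -0.031 to 0.22 (Ebp), -0.074 to 0.11 (Sc5d), -0.13 to 0.17 (Dhcr7), -0.27 to 0.12 (Srebf1), -0.19 to 0.24 (Scap), -0.066 to 0.14 (Acly), -0.025 to 0.41 (Stard4) and -0.20 to 0.012 (Npc1). Leaving out one library moved 22 of 28 OB values and 28 of 28 PD values by over 1.5 times in at least one case. In the fits without a library the spread is pooled over all groups fitted.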
